A study of Caenorhabditis elegans with 28 samples.

Results

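miR-42 and miR-43 are neighbouring C. elegans microRNA hairpins, and all rows named for them were taken, which gave 2 miRNAs with 4 mature arms (miR-42-3p, miR-42-5p, miR-43-3p and miR-43-5p) of the 437 arms counted. Arms are named for the side of the hairpin stem, 5p or 3p, from which the reads derive. Small RNAs were sequenced from whole larvae of strain HW3527, which carries ebax-1(tm2321) IV, and of the wild-type strain N2. Synchronised larvae of both strains grew on plates at 25 °C without treatment, and each hour from 18 to 31 h gave a single library of each strain, in all 14 ebax-1 mutant and 14 wild-type libraries. The tm2321 allele was the only genetic difference named, each strain was 1 line, and the labels named no replicate cultures. The p-values below thus measure no more than how single libraries scatter about a fitted curve or, where arms are compared, from hour to hour. That scatter may be technical, and strain and culture cannot be told apart. The genotype rests on the labels, since mRNA of ebax-1 was not analysed here.

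MicroRNAs are cut from a hairpin as a duplex of both arms. Usually 1 arm, the guide, is kept by an Argonaute protein and pairs through its seed near the 5′ end with target mRNAs, while the other arm, the passenger, is lost quickly. Some guides are destroyed together with their Argonaute through a ubiquitin ligase whose substrate receptor is EBAX-1 in worms and ZSWIM8 in mammals. miR-42-3p is a member of the miR-35 family, known for its essential role in embryos and for its decay as embryos become larvae. The other members, miR-35 to miR-41, come from a separate cluster. miR-43-3p is grouped with miR-2, miR-250 and miR-797, and the third hairpin beside miR-42 and miR-43 is miR-44. The comparison asks what loss of EBAX-1 does to each arm of 2 neighbouring hairpins.

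In the WBcel235 annotation, the gene mir-42 (WBGene00003270) occupies bases 11889811 to 11889905 of chromosome II on the + strand, and mir-43 (WBGene00003271) bases 11889910 to 11890007. Only 4 bases separate them, and 15 bases separate mir-43 from mir-44 (WBGene00003272, bases 11890023 to 11890118). All 3 genes lie on the same strand. A single other annotated gene, ZK930.12, overlaps mir-42 and mir-43. The authors' counting used only reads in the orientation of the annotated miRNA. The nearest coding genes are ZK930.6, which lies 3208 bases before mir-42, and ZK930.2, which lies 873 bases after mir-44. The clustered relatives of miR-42 lie elsewhere on this chromosome, with mir-35 starting at base 11537608 and mir-41 ending at base 11538404. The authors counted reads on the older ce10 build, so these positions are given as annotation only.

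Library totals lay between 4938126 and 13223782 counts, with a median of 7719984.5 in the mutant and 8812898 in wild type. All 4 arms were read in all 28 libraries, with a lowest raw count of 67 (miR-42-5p in wild type at 31 h). Levels are given as normalised counts, the reads of an arm divided by the library total and multiplied by the mean total. Each level is thus a share of all counted reads, and in whole animals less RNA per cell and fewer expressing cells cannot be told apart.

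The ebax-1 mutant held more of both 3p arms at all hours, and showed no such gain of either 5p arm. miR-42-3p reached 671 normalised counts in its lowest mutant library (31 h), a median of 908 and a highest value of 1144 (28 h), against 108 (19 h), 219 and 320 (23 h) in wild type. The 14 mutant libraries all lay above the 14 wild-type libraries, as they also did for each 3p arm of miR-35 to miR-41. How many of all arms separated in this way was not counted, so such separation is not shown to be particular to these arms. miR-43-3p had 605 (28 h), a median of 1579 and 1918 (23 h) in the mutant, against 175 (31 h), 431 and 596 (19 h) in wild type. Here too the strains did not overlap, although the lowest mutant library lay close to the highest wild-type library. miR-42-5p ran between 258 (27 h) and 1296 (24 h) in the mutant with a median of 457, against 72.7 (31 h) to 1510 (21 h) and a median of 481 in wild type. For miR-43-5p the mutant gave 122 (28 h) to 748 (24 h) with a median of 411, against 92.3 (31 h) to 1187 (21 h) with a median of 388 in wild type. Both 5p arms overlapped between the strains over most of their range.

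**Figure D1:**
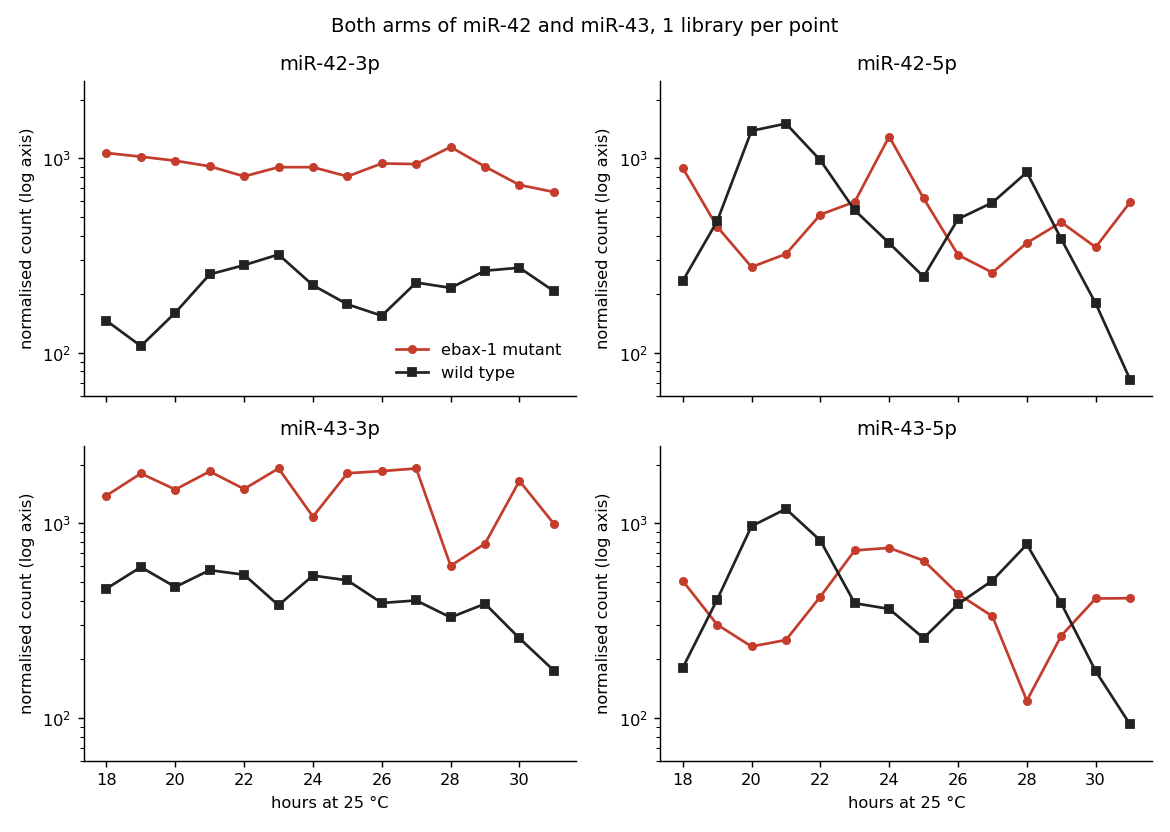
Normalised counts (log axis) of the 4 arms against hours at 25 °C, with 1 point per library, red circles for the ebax-1 mutant and black squares for wild type. Both 3p arms lie higher in all mutant libraries, and the 5p arms of the strains cross repeatedly.

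The order of the arms differed between the strains. In the mutant, miR-43-3p averaged highest, above miR-42-3p in 12 of 14 hours, followed by miR-42-5p and miR-43-5p, which did not differ beyond their spread (523 ± 282 against 415 ± 187 normalised counts, SD, n = 14). In wild type the 5p arms came first, miR-42-5p at 593 ± 438 and miR-43-5p at 492 ± 324, and miR-43-3p at 429 ± 122 did not differ from miR-43-5p beyond the spread, being lower in 7 of 14 hours. miR-42-3p stood last in wild type, below miR-43-3p in 12 of 14 hours. Among all arms with a read in the strain, miR-42-3p ranked 117 of 391 by mean level in the mutant and 168 of 392 in wild type, and miR-43-3p ranked 100 in the mutant and 146 in wild type. The ranks of miR-42-5p (135 in the mutant, 132 in wild type) and miR-43-5p (143 in the mutant, 141 in wild type) were nearly alike. These 4 arms were thus of middle abundance, while miR-44-3p next to them ranked 8 in the mutant and 9 in wild type.

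For the test, mutant libraries of 21 to 31 h were set against wild-type libraries of 18 to 28 h. This lag follows the developmental delay that the study read from mRNA. limma fitted a curve per strain over these 11 matched hours, and an arm was called where the joint F test of its strain terms had an adjusted p under 0.01. Of the 406 arms tested, 16.5% were called, 5.67% as higher in the mutant. Of the 4 arms, 2 were called, both 3p arms, and both were higher. miR-42-3p averaged 878 ± 125 normalised counts in the mutant against 206 ± 63.7 in wild type (SD, n = 11 matched hours each), a log2 difference of 2.09 ± 0.05 (SE) or 4.27-fold (limma, adjusted p = 1.3e-08). miR-43-3p averaged 1453 ± 493 in the mutant against 472 ± 88.5 in wild type, a log2 difference of 1.53 ± 0.15 or 2.90-fold (limma, adjusted p = 0.00143). Both were higher in 11 of 11 matched hours, and by size of increase miR-42-3p stood at rank 7 and miR-43-3p at rank 11 of all 406 arms. Folds are taken from log2 values with the authors' pseudocount of 8.

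Neither 5p arm was called. miR-42-5p averaged 519 ± 288 normalised counts in the mutant and 696 ± 435 in wild type, a log2 difference of -0.32 ± 0.13 that was negative in 8 of 11 hours (limma, adjusted p = 0.193). miR-43-5p averaged 433 ± 200 in the mutant and 567 ± 322 in wild type, a log2 difference of -0.33 ± 0.11, likewise negative in 8 of 11 hours (limma, adjusted p = 0.0915). A pseudocount had little weight at these levels, but the scaling did: with the TMM factors of edgeR the differences were -0.16 for miR-42-5p and -0.17 for miR-43-5p.

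The strain difference of miR-42-3p fell, rose and fell again over the matched hours. Its log2 difference was 2.58, 2.81 and 2.43 at the matched hours 18, 19 and 20, then 1.80, 1.49 and 1.53 at 21, 22 and 23. It was 2.03, 2.64 and 2.49 at 24, 25 and 26, and 1.64 and 1.60 at 27 and 28. At the hours 18, 19, 20, 25 and 26, which had the largest differences, wild type held 146, 108, 161, 177 and 155 normalised counts, its lowest levels over the matched hours. The change of the strain difference with hour missed the threshold (limma, interaction terms, adjusted p = 0.0137, with 0.985% of all arms called). The pattern was not particular to miR-42-3p. At the matched hours 19, 23 and 25, miR-35-3p had 4.55, 2.30 and 3.78, miR-37-3p 4.43, 2.14 and 3.38, and miR-40-3p 3.82, 2.36 and 3.06. In miR-36-3p, miR-38-3p, miR-39-3p and miR-41-3p the difference was instead lower at 25 than at 24. For miR-43-3p the log2 difference ran between 0.25 (matched hour 25) and 2.27 (matched hour 23), and its interaction was not called (limma, adjusted p = 0.54).

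**Figure D2:**
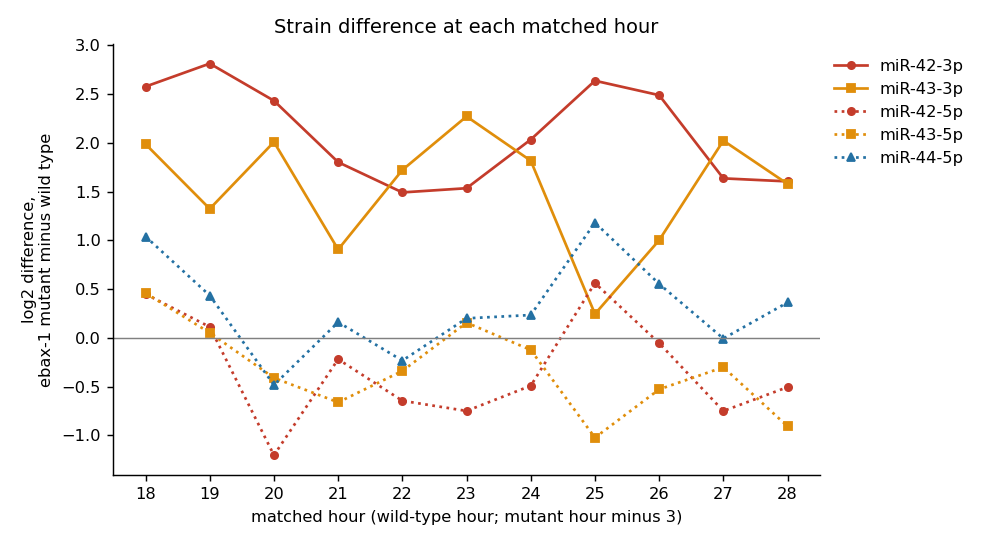
Log2 difference, ebax-1 mutant minus wild type, at each of the 11 matched hours (wild-type hour on the axis, mutant hour minus 3), with solid lines for 3p arms and dotted lines for 5p arms. miR-42-3p stays between 1.49 and 2.81, miR-43-3p falls to 0.25 at matched hour 25, and miR-44-5p lies above miR-42-5p at every hour.

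Both arms of a hairpin are cut from the same precursor, so their ratio asks whether they changed together. In miR-42 the mutant held 0.695 (24 h) to 3.62 (27 h) 3p reads per 5p read with a median of 2.01, against 0.116 (20 h) to 2.85 (31 h) with a median of 0.490 in wild type. In miR-43 the mutant held 1.45 (24 h) to 7.37 (21 h) with a median of 3.81, against 0.421 (28 h) to 2.56 (18 h) with a median of 1.005 in wild type. The majority arm thus changed side in miR-42. Its 3p arm outnumbered the 5p arm in 13 of 14 mutant libraries, all but that of 24 h, against 2 of 14 in wild type, those of 30 and 31 h. In miR-43 the 3p arm was the majority in 14 of 14 mutant libraries, against 7 of 14 in wild type. Over the matched hours, 3p reads made up 64.4 ± 11.4% of both arms of miR-42 in the mutant against 26.7 ± 10.7% in wild type, and 77.0 ± 8.05% of miR-43 against 48.8 ± 14.4% (SD, n = 11).

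For the ratio, limma tested the mean strain difference over the matched hours instead of the joint F test, with the same threshold. The log2 ratio of 3p to 5p rose by 2.41 ± 0.15 in miR-42 (limma, adjusted p = 2.83e-10) and by 1.86 ± 0.13 in miR-43 (limma, adjusted p = 2.67e-09), higher in 11 of 11 matched hours for both. The joint F test gave adjusted p = 9.88e-08 for miR-42 and 7.93e-07 for miR-43 (limma). By the mean strain difference, this ratio was called in 44.8% of the 96 hairpins tested, 29.2% as higher in the mutant, and by size miR-42 stood at rank 6 and miR-43 at rank 7. Their cluster mate miR-44 showed a ratio change of 0.08 ± 0.14 (limma, adjusted p = 0.672). Its 3p reads stood at 99.0% of both arms in the mutant and 98.9% in wild type. Reads of miR-44-3p could not be told apart from those of its copy miR-45-3p, whose gene lies on the other strand. The values for miR-44 may thus include 3p reads of another hairpin. They cannot show whether the arms of the miR-44 hairpin changed together. The ratio rose more in miR-42 than in miR-43, by 0.55 ± 0.16 on the log2 scale and in 10 of 11 matched hours (exact permutation test flipping the sign of each hour, two-sided, p = 0.00879, adjusted p = 0.0107 over 17 comparisons of this kind). The smallest p this test can give is 0.000977. It treats the matched hours as independent. Neighbouring hours were not labelled as separate cultures, so its p measures spread over hours only. Without the 3 h lag, the difference of the ratios was 0.18 and was not called.

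**Figure D3:**
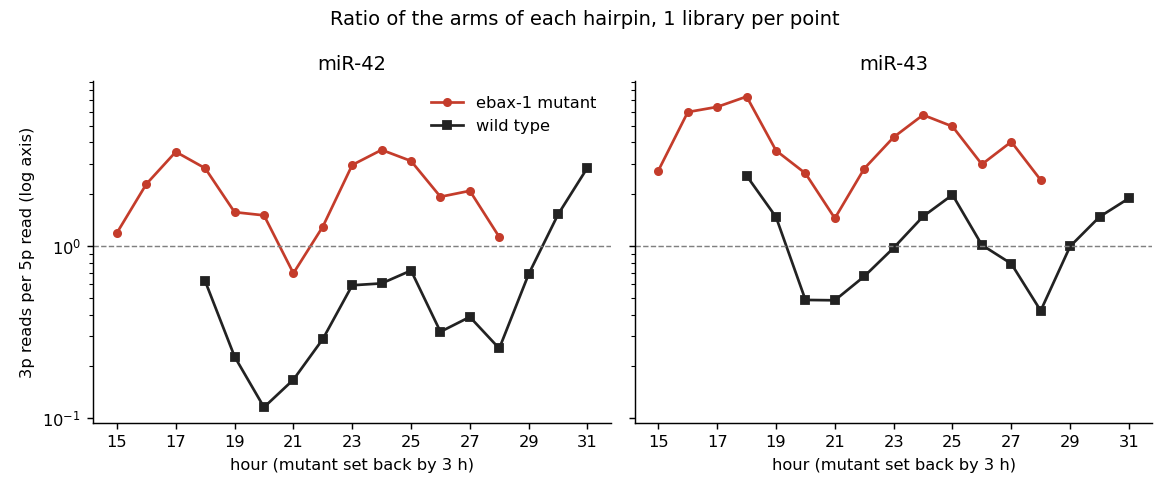
3p reads per 5p read (log axis) in each library against hour, with the mutant set back by 3 h, in red for the ebax-1 mutant and black for wild type. The dashed line marks equal reads of both arms, and at every shared hour the mutant lies above wild type for both hairpins.

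Reads of both arms together rose less than the 3p arms. miR-42 summed to 1397 ± 296 normalised counts in the mutant against 903 ± 457 in wild type, a ratio of means of 1.55, with the mutant higher in 10 of 11 matched hours. miR-43 summed to 1886 ± 596 in the mutant against 1039 ± 347 in wild type, a ratio of 1.82, also higher in 10 of 11 hours. No test was run on these sums.

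Arm by arm, no difference between the 2 hairpins was called. The log2 strain difference of miR-42-3p exceeded that of miR-43-3p by 0.56 ± 0.28 and in 8 of 11 matched hours, which missed the threshold of 0.05 (exact permutation test, two-sided, adjusted p = 0.0874). The 5p arms differed by 0.01 ± 0.21 (exact permutation test, adjusted p = 0.94), an error too wide to show that they moved alike. In raw reads, miR-42-3p gave 0.721 ± 0.444 reads per miR-43-3p read in the mutant and 0.457 ± 0.183 in wild type (SD, n = 11). The medians lay closer, at 0.51 in the mutant and 0.41 in wild type. The mutant ratio was highest at 28 h (1.89), the library in which miR-43-3p was lowest.

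The arms of miR-42 and miR-43 were also set against those named for the cluster mate miR-44. miR-44-3p averaged 361207 normalised counts in the mutant and 277762 in wild type, a log2 difference of 0.39 ± 0.05 (limma, adjusted p = 0.00809). In every library miR-44-3p had between 2.91 and 2.94 reads per read of its copy miR-45-3p, so reads of these names cannot be told apart. Comparisons with miR-44-3p thus do not measure the miR-44 hairpin alone. The strain difference of miR-42-3p exceeded that of miR-44-3p by 1.70 ± 0.17 in 11 of 11 hours (exact permutation test, adjusted p = 0.00184), and that of miR-43-3p exceeded it by 1.14 ± 0.18 in 10 of 11 hours (exact permutation test, adjusted p = 0.00302). The 5p arms diverged in the other direction. miR-44-5p showed 0.31 ± 0.12 (limma, adjusted p = 0.159), and the strain difference of miR-42-5p lay below it by 0.63 ± 0.06 in 11 of 11 hours (exact permutation test, adjusted p = 0.00184). That of miR-43-5p lay below it by 0.64 ± 0.20 in 10 of 11 hours (exact permutation test, adjusted p = 0.00415). Without the mutant libraries of 24, 28, 29 and 31 h, a choice made after seeing the data, this last difference was -0.24 and was no longer called.

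In reads, the mutant held 5.23 (24 h) to 9.14 (30 h) miR-44-5p reads per miR-42-5p read over the matched hours, with a mean of 7.10 ± 1.10, against 3.56 (23 h) to 5.41 (27 h) and 4.56 ± 0.597 in wild type. Of the 11 mutant libraries 10 lay above all wild-type libraries. Per miR-43-5p read, the mutant held 5.10 (26 h) to 19.5 (28 h) miR-44-5p reads, against 4.08 (25 h) to 6.79 (26 h) in wild type. The highest of these mutant values rests on 74 raw reads of miR-43-5p, its lowest count in the mutant.

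**Figure D4:**
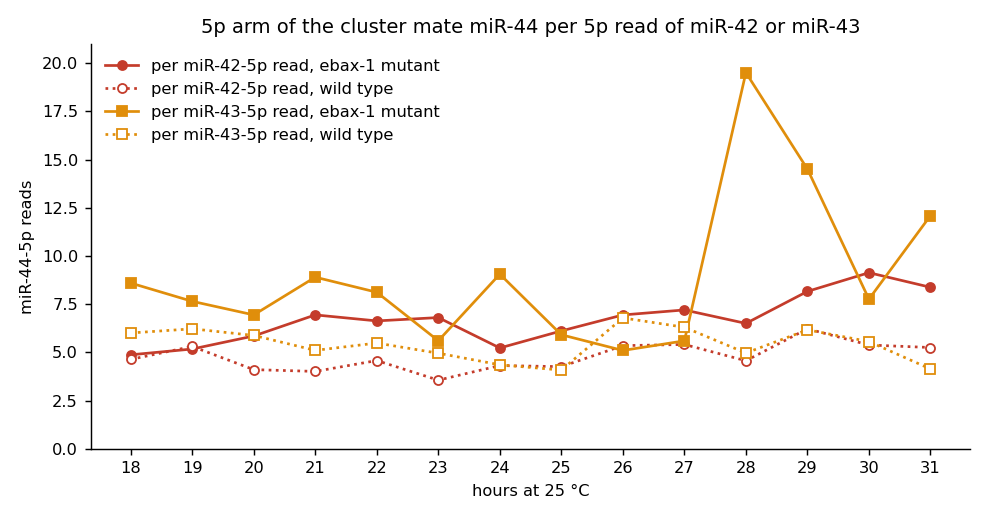
Reads of miR-44-5p per read of miR-42-5p (red) and of miR-43-5p (orange) against hours at 25 °C, with filled symbols for the ebax-1 mutant and open symbols for wild type, 1 library per point. The ratio to miR-42-5p is higher in the mutant from 20 h on, and that to miR-43-5p reaches 19.5 in the mutant library of 28 h.

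miR-42-3p rose less than most members of its family. The log2 differences of the other family members were higher or close to it, at miR-35-3p (3.48 ± 0.06), miR-36-3p (2.87 ± 0.09), miR-37-3p (3.27 ± 0.06), miR-38-3p (3.42 ± 0.12), miR-39-3p (3.33 ± 0.07), miR-40-3p (3.03 ± 0.04) and the rare miR-41-3p (1.85 ± 0.23). The strain difference of miR-42-3p lay below that of miR-35-3p by 1.38, of miR-37-3p by 1.17, of miR-38-3p by 1.33 and of miR-40-3p by 0.93, at all 11 matched hours (exact permutation test, adjusted p = 0.00184 for each). It lay below that of miR-39-3p by 1.24 (exact permutation test, adjusted p = 0.00302) and of miR-36-3p by 0.78 (exact permutation test, adjusted p = 0.0107). From miR-41-3p it differed by 0.25 ± 0.31, which was not called (exact permutation test, adjusted p = 0.467) and which turned to -0.89 with a pseudocount of 1, since miR-41-3p averaged 4.10 normalised counts in wild type. The share of miR-42-3p among all 3p reads of the family was 0.613 ± 0.109% in the mutant against 1.36 ± 0.383% in wild type (SD, n = 11), and the mutant libraries all lay below the wild-type libraries.

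miR-43-3p stood apart from the miRNAs it is grouped with, none of which was called. miR-2-3p changed by -0.19 ± 0.09 (limma, adjusted p = 0.285), miR-250-3p by 0.03 ± 0.10 (limma, adjusted p = 0.527) and miR-797-5p by -0.34 ± 0.14 (limma, adjusted p = 0.267). The strain difference of miR-43-3p exceeded theirs by 1.72 ± 0.09 for miR-2-3p, by 1.50 ± 0.08 for miR-250-3p and by 1.87 ± 0.06 for miR-797-5p, each in 11 of 11 hours (exact permutation test, adjusted p = 0.00184 for each). Its share of the reads of these 4 arms was 4.07 ± 0.843% in the mutant against 1.41 ± 0.267% in wild type (SD, n = 11), with no overlap between the strains. It remained a minority arm of this group in both.

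**Figure D5:**
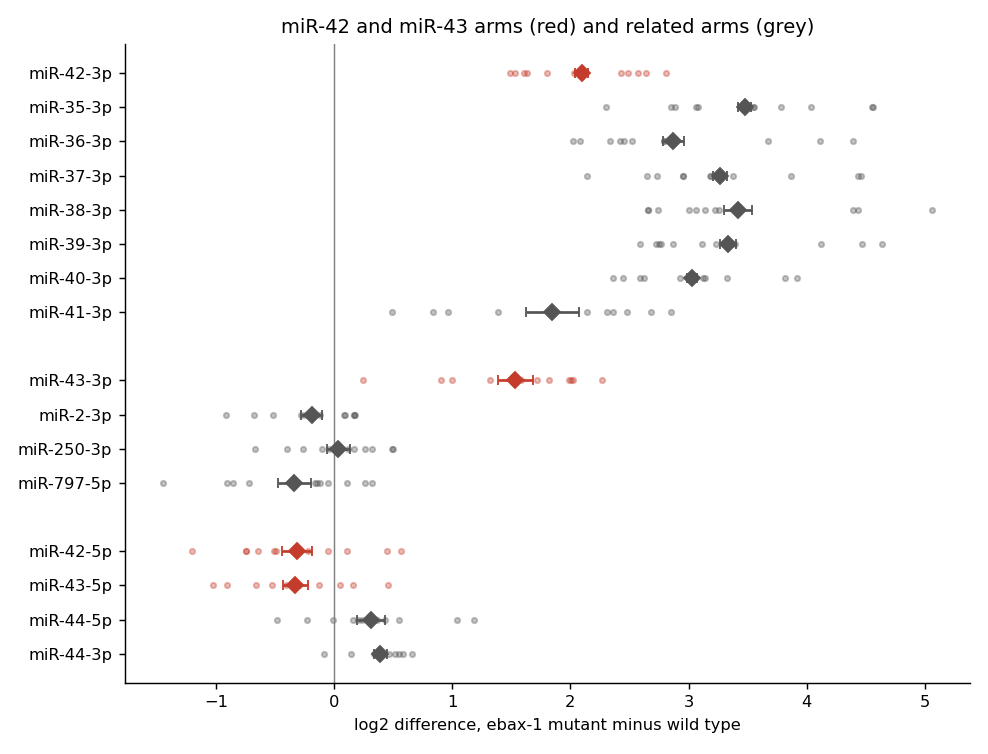
Log2 difference, ebax-1 mutant minus wild type, of the miR-42 and miR-43 arms (red) and related arms (grey), where diamonds with bars are the fitted mean ± SE and small dots the 11 matched hours. miR-42-3p at 2.09 lies below miR-35-3p to miR-40-3p, miR-43-3p at 1.53 lies above miR-2-3p, miR-250-3p and miR-797-5p, and miR-42-5p and miR-43-5p lie below miR-44-5p.

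In time, the 5p arms of both hairpins swung up and down. A cosine of a 7 h period beside a linear trend gave an amplitude (log2, centre to peak) of 0.76 in the mutant and 1.25 in wild type for miR-42-5p, and of 0.80 in the mutant and 1.13 in wild type for miR-43-5p. In wild type the rhythm was called for miR-42-5p (limma, adjusted p = 0.000651) and miR-43-5p (limma, adjusted p = 0.000834), where 7.91% of all arms were. In the mutant, where 2.81% were, miR-42-5p (limma, adjusted p = 0.015) and miR-43-5p (limma, adjusted p = 0.0202) missed the threshold of 0.01. Without the 3 shallow mutant libraries of 28, 29 and 31 h, miR-42-5p passed it there, with an amplitude of 0.90 (limma, adjusted p = 0.00811). The highest values fell at 24 h in the mutant for both arms and at 21 h in wild type, with a further wild-type crest at 28 h. Between hour lags of 0 to 6 h, the strain difference of each 5p arm, and of miR-44-5p, varied least from hour to hour at a lag of 3 h, with SDs of 0.544 for miR-42-5p and 0.449 for miR-43-5p.

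Of the 3p arms, miR-42-3p had a rhythm in wild type alone that passed the test. Its amplitude was 0.14 in the mutant (limma, adjusted p = 0.71) and 0.48 in wild type (limma, adjusted p = 0.00329), and highest and lowest mutant libraries differed 1.70-fold, against 2.96-fold in wild type. A lower amplitude in the mutant was shared by miR-35-3p to miR-40-3p, at 0.10 to 0.19 against 0.55 to 0.68 in wild type. The rare miR-41-3p went the other way, with 0.43 in the mutant against 0.24. Wild-type levels had local crests at 23 h (320) and 30 h (274), each 2 h after a crest of miR-42-5p. A difference in the rhythm of miR-42-3p between the strains was called at the clock hour (limma, adjusted p = 0.00191, with 10.6% of all arms called). With the mutant set back by 3 h it missed the threshold (limma, adjusted p = 0.021, with 0.493% called), which does not show that the rhythms were alike. miR-43-3p showed no called rhythm in the mutant (amplitude 0.17, limma, adjusted p = 0.93) or in wild type (0.12, limma, adjusted p = 0.831).

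miR-43-3p declined instead in wild type, by 0.09 on the log2 scale per hour (limma, adjusted p = 0.00626, where the trend was called in 25.3% of arms), and miR-42-5p declined there by 0.13 per hour (limma, adjusted p = 0.00544). With TMM factors neither decline passed (limma, adjusted p = 0.0183 for miR-43-3p and 0.0116 for miR-42-5p). In the mutant none of the 4 arms had a called trend (limma, adjusted p between 0.144 and 0.398, where 18.4% of arms had one). The slopes of the strains were not tested against each other.

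Likeness of time courses was read as the correlation of log2 values over the 28 libraries after taking off each strain's mean, among 211 arms, and is descriptive since all points share library and depth. The 5p arms went together. miR-42-5p was most like miR-44-5p (r = 0.967), miR-43-5p (0.891) and miR-230-3p (0.761), and miR-43-5p most like miR-42-5p (0.891), miR-44-5p (0.887) and miR-79-5p (0.818). The 3p arms were less like their own 5p arms and unlike each other. miR-42-3p was most like miR-37-3p (0.768), miR-35-3p (0.763) and miR-67-5p (0.745), and its r with miR-42-5p was 0.047. Of these, miR-35-3p stayed nearest in the mutant alone (0.794), while in wild type alone let-7-3p (0.869), miR-67-5p (0.841) and miR-241-3p (0.817) came first, none of them of its family. miR-43-3p was most like miR-2-3p (0.914), then miR-232-3p (0.874) and miR-231-3p (0.839), with an r of 0.538 to miR-43-5p and of -0.214 to miR-42-3p. Within a strain its nearest arms were others, miR-46-3p (0.989), miR-79-3p (0.967) and miR-62 (0.963) in the mutant, and miR-247-3p (0.959), miR-797-5p (0.91) and miR-61-3p (0.885) in wild type. Within the strains, miR-42-5p and miR-43-5p had an r of 0.656 in the mutant and 0.988 in wild type.

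4 mutant libraries, those of 24, 28, 29 and 31 h, bear on the values of miR-43. There miR-43-3p had 1084, 605, 787 and 996 normalised counts, against 1390 to 1918 in the other 10 mutant libraries. miR-42-3p was not low in the same way, with 901, 1144, 906 and 671 there against 730 to 1066 in the others. miR-42-5p reads per miR-43-5p read stood at 1.73, 3.00, 1.78 and 1.44 in these libraries, against 0.735 to 1.76 in the other mutant libraries and 0.788 to 1.43 in wild type. The arms most like miR-43-3p were picked by a correlation over all 28 libraries, these 4 included, so low values here are partly built into that choice. Of those arms, miR-2-3p had 4707, 3420, 3849 and 3648 normalised counts against at least 5879 in the others, and miR-232-3p had 2051, 969, 1196 and 1402 against at least 2516. In all, 30 of 203 arms averaging 50 or more normalised counts in the mutant were lower in each of these 4 libraries than in any of the other 10, and 3 were higher. The libraries of 28, 29 and 31 h had the lowest totals in the mutant (5055100, 4970366 and 6125674 counts), while that of 24 h had 9733557. The part of depth in these levels was not tested. Without the 4 libraries, the log2 difference was 1.88 for miR-43-3p (limma, adjusted p = 0.00998) and 2.07 for miR-42-3p (limma, adjusted p = 0.000463), and the ratio changes were 1.94 in miR-43 and 2.53 in miR-42. Without the 3 shallow ones alone, the difference of miR-43-3p was 1.77 and its adjusted p from limma was 0.0112, which missed the threshold.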

How the data were processed

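Per the methods and labels, the authors aligned 76-cycle single-end reads with Bowtie through QuasR to ce10 (up to 100 hits) and counted same-strand reads starting within 3 bp of a miRBase 22 mature 5′ end. No tool version is given in the sources used here. The authors deposited raw counts, and log2 values of counts scaled to the mean library total with a pseudocount of 8, recomputed here to within 0.0005. Scaling makes each level a share of the library. limma 3.58.1 in R 4.3.3 fitted a B-spline of 6 components by strain to 22 libraries (8 residual degrees of freedom), with Benjamini-Hochberg adjustment over 406 arms, or over 96 hairpins where each arm reached a mean of 10. Where libraries were left out, differences were averaged over hours left in both strains. Comparisons between arms used exact sign-flip permutation tests over 11 hours (2048 patterns). On simulated data the spline fit called 20 of 20 arms changed by a log2 value of 2 and 19 of 20 changed by 1. Of unchanged arms it called 1 of 366. The simulated arms had flat time courses and a fixed spread, so these counts do not give the power for the 4 arms here.

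Named are both arms of miR-42, miR-43 and miR-44, seed relatives, and the 3 arms most like each of the 4. Members and lists were chosen with earlier results of these data known, and fits without the mutant libraries of 24, 28, 29 and 31 h, miR-45-3p and arms nearest within 1 strain were added after seeing the data. Alternatives were lags, splines, scaling, pseudocounts, low-count filters, edgeR 4.0.16 and DESeq2 1.42.0.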

Additional observations from a re-analysis of the deposited data

Results flagged for a closer look

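The rhythm of 3 of the 4 arms differed between the strains when hours were compared by the clock, in a test of the difference itself (limma over all 28 libraries), which called 10.6% of all arms. The adjusted p was 3.49e-06 for miR-42-5p, 4.64e-06 for miR-43-5p and 0.00191 for miR-42-3p. With the mutant set back by 3 h, the adjusted p from limma was 0.799 for miR-42-5p, 0.947 for miR-43-5p and 0.021 for miR-42-3p, and none was called, against 0.493% of all arms. For miR-43-3p the difference was not called at the clock hour (limma, adjusted p = 0.845) or after the shift (0.959).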

How the results depend on the processing

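Both 3p calls, and the rise of the 3p to 5p ratio in both hairpins, held in all 22 fits that each left out 1 library (miR-42-3p 2.02 to 2.17, miR-43-3p 1.44 to 1.66, ratio of miR-42 2.30 to 2.46, ratio of miR-43 1.80 to 1.94). Under the other alternatives miR-42-3p lay between 1.97 and 2.31 and stayed called, and miR-43-3p between 1.44 and 1.88, losing its call only without the 3 shallow libraries (1.77). The uncalled 5p arms depended on the lag. miR-42-5p was called at lags of 0 h (0.057, with the sign turned), 1 h (-0.21) and 4 h (-0.21), and miR-43-5p at 0 h (-0.087), 1 h (-0.27) and 2 h (-0.36). These are calls of the joint F test, which also takes in change with hour, and not of the mean differences in brackets. The strain difference of miR-42-5p varied from hour to hour with an SD of 1.57 at a lag of 0 h, against 0.544 at 3 h. The share of all arms called at each lag is not given here. A rhythm was called 3 times with a period of 7 h, 0 times with 6 h and 1 time with 8 h, there for miR-43-5p in the mutant. Without the 3 shallow libraries it was called 4 times, miR-42-5p in the mutant included. A trend was called 2 times, against 1 time with a period of 8 h (miR-43-3p in wild type) and 0 times with TMM factors. Shares of all arms called for rhythm or trend under these altered settings are not given here. The counts thus cannot be read as particular to these arms. A rhythm difference was called for 3 arms, and for 0 with the mutant set back by 3 h. Among differences between arms, miR-42-5p minus miR-43-5p turned to -0.0096 at a lag of 4 h, -0.29 without the 3 shallow libraries and -0.40 without the 4 libraries named above. miR-42-3p minus miR-41-3p turned to -0.89 with a pseudocount of 1, -0.16 without the 3 and -0.30 without the 4. With matched hour as a replicate block, where the mean difference alone was tested, no call changed (2.09 for miR-42-3p and 1.53 for miR-43-3p). The labels name no shared replicate numbers beyond the hour. Where the causes of these changes are not given by the setting itself, the cause was not tested.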
